A study of Mus musculus with 10 samples.

Results

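The leukaemia inhibitory factor (LIF) signalling pathway was described through 6 genes out of the 30419 gene names in the files, in mouse embryonic stem cells with and without Mettl3. The members were chosen by name for their roles, with earlier results of these data known. They were the receptor genes Lifr and Il6st, the kinase gene Jak1, the transcription factor gene Stat3, the feedback inhibitor gene Socs3 and the phosphatase gene Ptpn11. All 6 were found.

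LIF is added to the medium of mouse embryonic stem cells to keep them undifferentiated. It joins the LIF receptor chain encoded by Lifr to the shared chain gp130 encoded by Il6st, and JAK kinases bound to the receptor then phosphorylate it. STAT3 is recruited, phosphorylated and carried to the nucleus, where it raises genes that hold the self-renewing state. SOCS3, itself a product of a STAT3 target gene, binds gp130 and the kinase and closes the loop. SHP2, the phosphatase encoded by Ptpn11, binds gp130 at a site shared with SOCS3 and passes the signal to the ERK branch, which favours differentiation. N6-methyladenosine (m6A) is a modified base of messenger RNA that is often found near stop codons and in the last exon, and METTL3 is the enzyme subunit that forms most of it.

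All 10 libraries came from J1, an established mouse embryonic stem cell line of the strain label J-1, grown without feeder cells. They formed 5 pairs, each with an immunoprecipitate (IP) of fragmented RNA, made with an m6A antibody, and an input that was not precipitated. The groups were 2 pairs from Mettl3 knockout (KO) cells, 2 pairs from cells labelled as Mettl3 wild type (WT), and 1 first pair with no stated genotype. How the knockout was made, and from how many clones, is not given in the sources used here. The culture notes also mention differentiation by leaving out LIF, but no label assigns any library to it. No label states that replicates were grown separately, so a p-value here reflects the scatter of these libraries alone, which may be technical.

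The values were coverage in 1510223 exon windows, scaled by the authors with a factor that is not stated. IP depth, read from the smallest step of each track, was 0.0644 and 0.0606 of the first IP's in the KO IPs, and 0.159 and 0.0712 of it in the WT IPs. Input depth, read alike, was 0.516 and 0.284 of the first input's in the KO inputs, and 0.438 and 0.457 of it in the WT inputs. KO replicate 2 was thus the shallowest input. Among the IPs, the share of windows at 0 was 74.3% and 67.6% in KO, and 50.5% and 65.4% in WT. Mettl3 itself had a mean input coverage of 3.14 and 3.38 in the KO libraries, 4.79 and 4.67 in the WT libraries and 12.9 in the first library. The difference, on the scale of log2(coverage + 1), was -0.43 (SE 0.07, limma adjusted p = 0.00259). Coverage of Mettl3 was thus lower in KO but not absent, and the deleted part of the gene is not given in the sources used here. Of the 7 embryonic stem cell markers all were expressed, with Pou5f1 at 251.7 and 247.9 in KO inputs and 246.4 and 259.8 in WT inputs.

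Transcript level is given as the mean coverage of a gene's exon windows in an input library, which is a value per length and can be set beside that of another gene. Bulk RNA does not tell fewer cells of a type from less RNA per cell. The question was whether the level of any pathway member differed between KO and WT. None of the 6 members passed the test across 11211 genes with a coverage of at least 1 in at least 2 inputs, whereas 26.6% of those genes did (limma on log2(coverage + 1), Benjamini-Hochberg adjusted p at most 0.05). The members stayed within a ratio of group means of 0.814 to 1.11, KO over WT, and Jak1 was the one farthest from 1.

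Among the receptor genes, Lifr had an input coverage of 7.35 and 6.88 in KO cells, against 6.42 and 6.35 in WT cells. Both KO libraries lay above both WT libraries. The log2 difference was 0.14 (95% interval -0.02 to 0.29, limma adjusted p = 0.171). Il6st, whose product gp130 also serves the receptors of interleukin 6 and its relatives, had 6.39 and 5.69 in KO cells, against 5.72 and 6.39 in WT cells. The groups covered the same range, and the interval of the log2 difference ran from -0.18 to 0.18.

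Jak1, the main kinase bound to gp130, had an input coverage of 4.78 and 4.31 in KO cells, against 5.18 and 5.98 in WT cells. Neither KO library reached the lower WT library. The log2 difference was -0.25 (SE 0.08, 95% interval -0.43 to -0.06), with a limma p of 0.0145 before and 0.0529 after adjustment, above the threshold of 0.05. Its place relative to the threshold depended on single libraries: the adjusted p was 0.0312 without KO replicate 1 and 0.0382 without WT replicate 1, against 0.377 at the highest without any other library. It was 0.0374 when genes had to reach a coverage of 5. By exon, the mean of the KO inputs was below that of the WT inputs in 22 of the 25 Jak1 exons, and both KO inputs were below both WT inputs in 10. The median exon ratio was 0.825, and single exons had ratios of 0.471 to 1.09. The KO mean was the lower one in 10 of 23 Lifr exons, 8 of 17 Il6st exons, 6 of 16 Ptpn11 exons and both Socs3 exons. The share over the exons of all genes was not computed. Exons of 1 gene come from the same libraries, so such counts are no added evidence of a difference.

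Stat3, the transcription factor of the pathway, had an input coverage of 8.53 and 8.61 in KO cells, against 8.70 and 9.49 in WT cells. The KO libraries lay below the WT libraries, by a margin smaller than the gap between the WT libraries. The log2 difference was -0.08 (95% interval -0.23 to 0.08, limma adjusted p = 0.446). In 17 of its 24 exons the KO mean was the lower one.

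Socs3 was the most abundant member, with 22.5 and 22.3 in KO cells, against 24.0 and 23.3 in WT cells. The groups did not overlap, and the log2 difference of -0.07 had an interval of -0.21 to 0.06 (limma adjusted p = 0.397). Ptpn11 had 8.49 and 7.93 in KO cells, against 8.42 and 8.64 in WT cells, with overlapping groups and an interval of -0.20 to 0.10. In all, 4 of the 6 members had groups that did not overlap, against 65.7% of all genes tested, and 5 of the 6 had the lower mean in KO, against 51.0%. The first count is near that of genes in general.

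Ranked by input coverage, the members had the same order in both genotypes: Socs3, Stat3, Ptpn11, Lifr, Il6st and Jak1. In KO cells no neighbours in that order overlapped. In WT cells the libraries of Lifr overlapped those of Il6st, and those of Il6st overlapped those of Jak1. In the first input the order was Socs3, Stat3, Il6st, Ptpn11, Jak1 and Lifr, with 17.8 for Stat3, 13.4 for Il6st, 13.2 for Ptpn11, 10.3 for Jak1 and 10.0 for Lifr. Socs3 reached 74.3 there, 3.14 times the WT mean, and Il6st 2.22 times. These 2 of 6 members were at or above 2-fold in the first input, as were 27.7% of all genes, and 0 were at or below 0.5-fold, against 9.82% of all genes. Summed over all windows, coverage was 14060518 in the first input, against 10122554 and 10428352 in the WT inputs. The fold values were not adjusted for this. With 1 library there was no test.

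**Figure D1:**
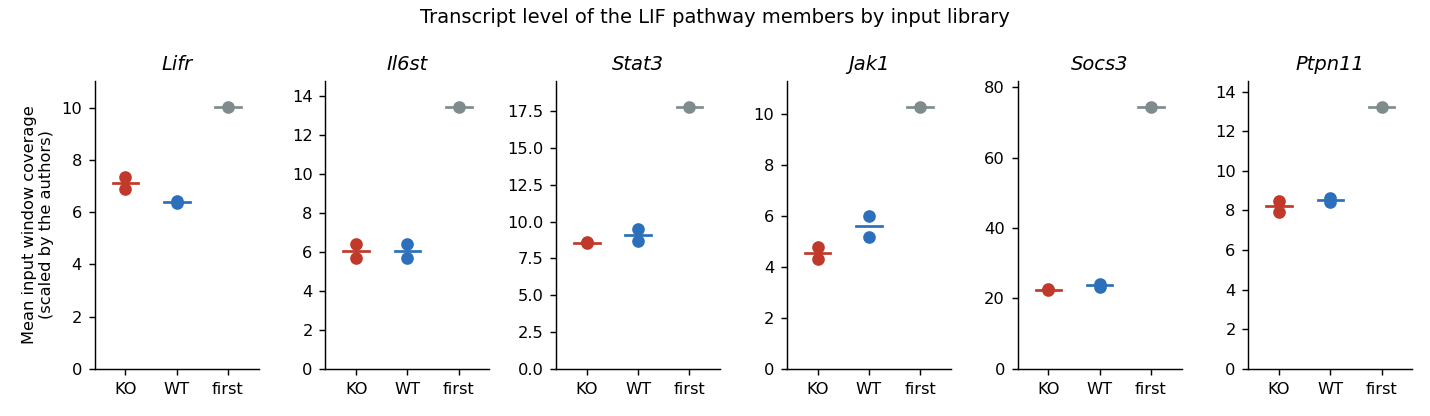
Mean window coverage (y axis, scaled by the authors) of each member in the input libraries of KO, WT and the first pair (x axis). Points are libraries and lines are group means; each panel has its own axis from 0. For all 6 members the KO and WT points lie close together, while the first library is higher.

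STAT3 and its relatives bind the palindrome TTCNNNGAA, and Socs3 is the member known as a direct STAT3 target, so the promoters of the 6 members were searched for these letters on both strands (a palindrome reads alike on each). The 7 promoters of the members in the RefSeq promoter table of build GRCm38.p6 span 250 bases before to 50 bases after a gene start, and Lifr has a pair of them. The letters were present in the Socs3 promoter alone, at 154 bases before the start, and in 8.30% of 32851 promoters in all. The match is a description and not a measured site. The Socs3 promoter lies at chr11:117969317-117969616 on the minus strand, and the capitals mark the match.
Socs3 promoter: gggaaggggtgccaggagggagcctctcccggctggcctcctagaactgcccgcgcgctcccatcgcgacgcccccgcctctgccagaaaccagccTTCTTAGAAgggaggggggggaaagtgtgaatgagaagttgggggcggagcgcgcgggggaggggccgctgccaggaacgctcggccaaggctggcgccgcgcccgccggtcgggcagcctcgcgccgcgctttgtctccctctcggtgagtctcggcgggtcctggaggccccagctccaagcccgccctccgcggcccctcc

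The IP libraries were read for where antibody signal lay along each member. In the first IP, windows with a winscore of 2 or more were joined into a region where at least 2 were adjacent. The winscore is the authors' log2 enrichment of a window over its gene's median, IP over input. The rule used the first pair, among genes with a mean WT input coverage of at least 1, called expressed here. No KO or WT IP entered it. Regions were found in 5 of the 6 members, against 54.5% of 11048 expressed genes. They numbered 9, and all 9 were in the exon at the 3′ end of the gene, where 67.8% of 7149 regions lay in genes of at least 2 exons, and 45.5% of those genes' windows. Genome coordinates and coding limits of these windows are not given in the files, so no base of the regions was printed.

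Lifr had 1 region, windows 8 to 22 of its 139-window last exon, and Il6st had 3, at windows 9 to 22, 30 to 34 and 36 to 40 of 64. Jak1 had 1 region, windows 8 to 13 of the 33 windows of its last exon counted from the 5′ side. Socs3 has 2 exons, and its regions were windows 14 to 16 and 21 to 27 of 45 in the last one. Those of Ptpn11 were windows 2 to 7 and 42 to 47 of 73. Stat3 had none: its highest window in the first IP had a winscore of 1.75.

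**Figure D2:**
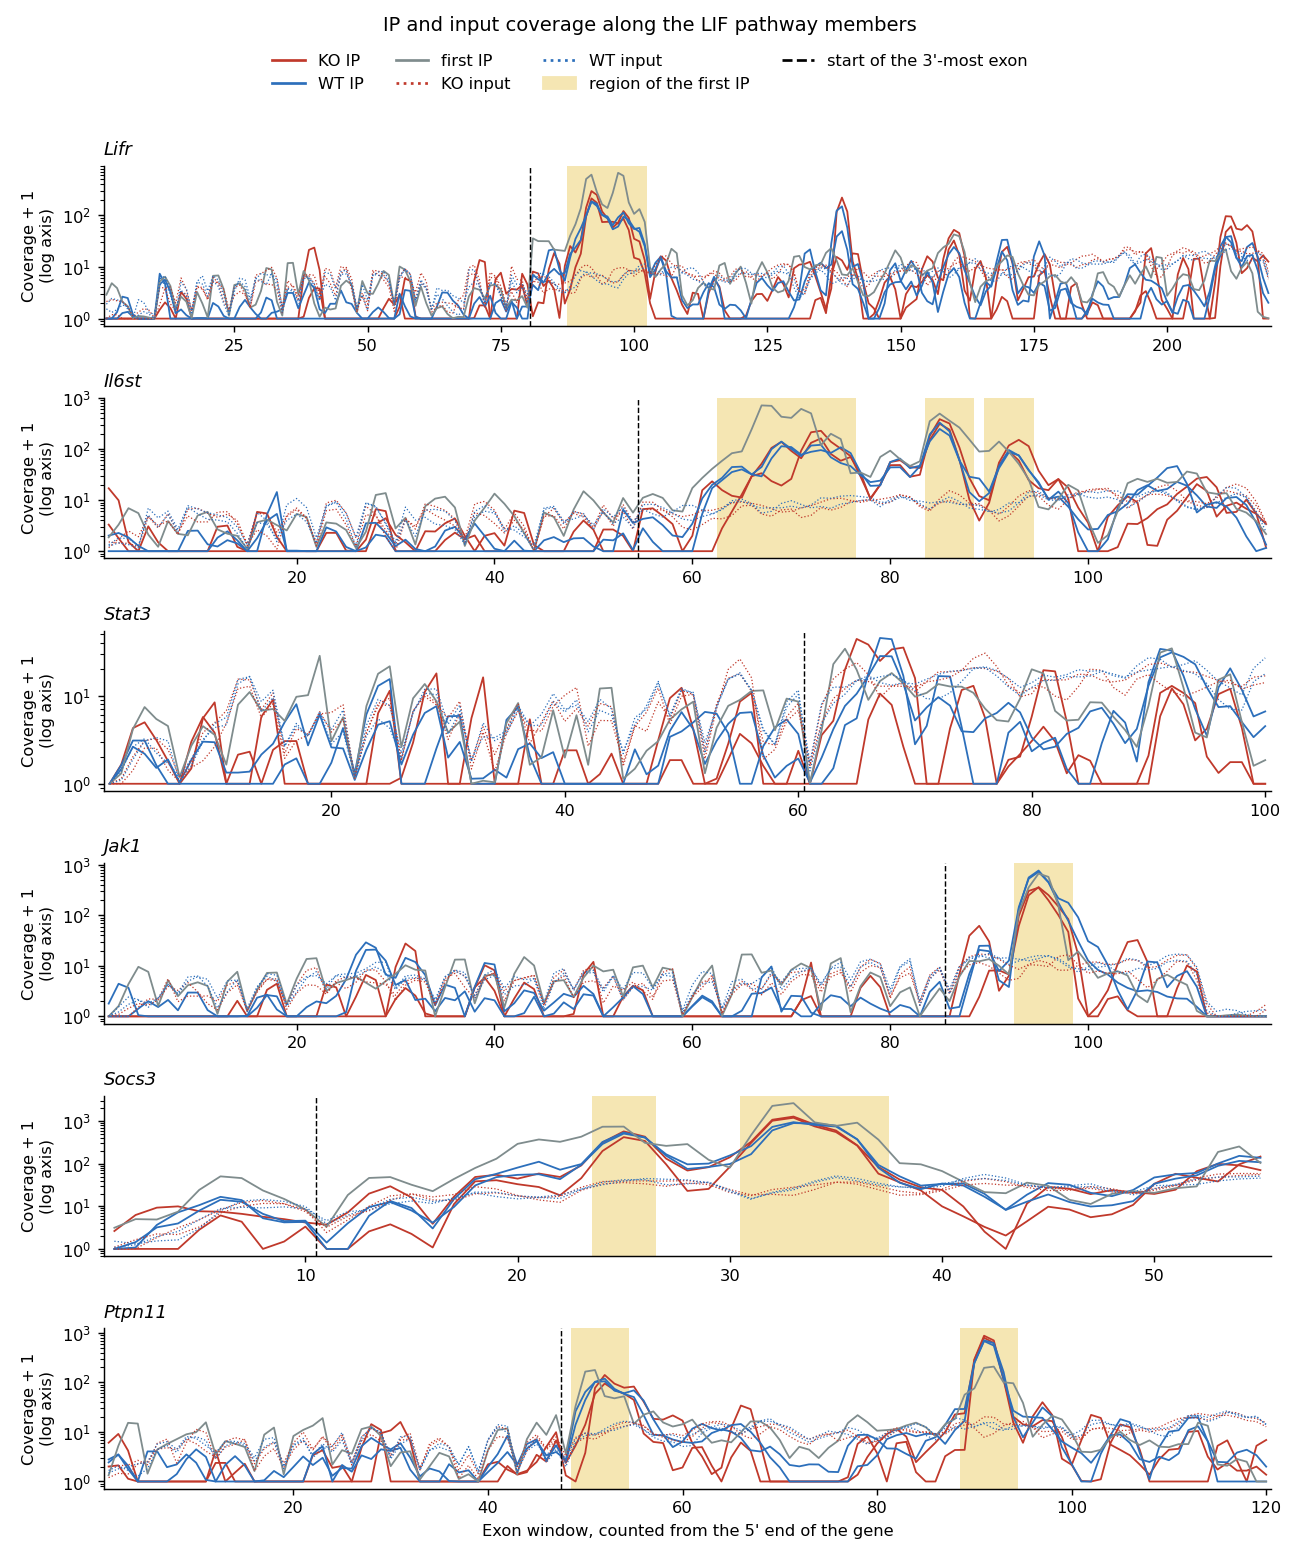
Coverage + 1 (log y axis) in each exon window, counted from the 5′ end of the gene (x axis), for each member. Solid lines are IPs and dotted lines inputs (the first input is not drawn), in red for KO, blue for WT and grey for the first IP; shading marks regions of the first IP and the dashed line the start of the 3′-most exon. The KO and WT IPs peak inside the shaded regions of 5 members, and Stat3 has no shaded region.

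All 9 regions had a mean winscore of at least 2 in both KO IPs and both WT IPs, as had 72.0% of all 9991 regions. Antibody signal at these places was therefore also measured in the cells labelled as Mettl3 KO. A few windows took most of the IP coverage of a gene. In Jak1, 5.08% of windows held 76.8% and 90.3% of the gene's IP coverage in KO cells, against 86.2% and 86.3% in WT cells, and 9.54% to 12.2% of its coverage in the KO and WT inputs. In Socs3 the regions held 83.9% and 79.4% in KO IPs, against 75.1% and 74.9% in WT IPs. In Ptpn11 they held 81.5% and 85.6% in KO IPs, against 81.0% and 79.7% in WT IPs. Il6st had 84.4% and 76.4% in KO IPs and 78.7% and 75.4% in WT IPs, and Lifr had the lowest shares, 50.7% and 52.6% in KO IPs and 56.8% and 54.9% in WT IPs. The groups overlapped for Jak1 and Il6st and did not for Socs3, Ptpn11 and Lifr. How often they overlap over all genes with regions was not computed, so no reading is drawn from this. Besides, 2 against 2 libraries cannot give an exact permutation p below 0.333.

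The position of the peak was also alike. The most covered window of the Jak1 region was window 95 of 118 from the 5′ end in all 5 IPs, that of the second Socs3 region window 33 of 55, and that of the second Il6st region window 85 of 118. In the second Ptpn11 region it was window 91 of 120 in the KO and WT IPs and window 92 in the first IP. The first Il6st region differed more: window 73 had the most coverage in both KO IPs, window 69 in both WT IPs and window 67 in the first IP. In Lifr it was window 92 in the KO and WT IPs and window 97 in the first IP.

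The size of the signal was compared by region. Winscore gave 0 calls among 9991 regions, with 8.20% at an unadjusted p under 0.05 and none of the 9 member regions among them. IP over input gave 0 calls among 9482 regions that had an input coverage of at least 1 (16.8% at an unadjusted p under 0.05), and of the 9 member regions Jak1's was the one below that unadjusted p. Both counts depended on single libraries: winscore gave 345 calls without KO replicate 1 and 1252 without KO replicate 2, and IP over input gave 771 and 2373. No member region was called in any of these. Over all regions the median log2 difference of IP over input was -0.45, with 78.0% lower in KO. Among the members 4 of 9 regions were lower in KO and the median was 0.00. For winscore 5 of the 9 were lower in KO, against 54.1% of all regions, and the medians were -0.04 over the members and -0.07 over all regions.

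Jak1 had the largest difference in IP over input among the members. Its region had a mean IP coverage of 183 and 192 in KO cells, against 350 and 385 in WT cells and 315 in the first IP. The KO libraries lay far below the WT libraries. Input coverage of the same windows was 8.97 and 10.4 in KO cells, against 12.1 and 12.9 in WT cells. After scaling on windows outside regions, log2 of IP over input was 5.22 and 5.06 in KO cells, against 5.75 and 5.94 in WT cells, a difference of -0.70 (SE 0.25, 95% interval -1.31 to -0.10). The limma p was 0.0301 before and 0.275 after adjustment over all regions. Winscore did not separate the groups, with 6.19 and 6.21 in KO cells and 5.76 and 6.93 in WT cells. The gene median that winscore divides by was 0 in both KO IPs of Jak1, and 1.25 and 0.20 in the WT IPs.

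The same held for the gene as a whole. Mean IP coverage of Jak1 was 12.1 and 10.8 in KO cells, against 20.7 and 22.7 in WT cells and 20.7 in the first IP, a ratio of 0.529. A ratio of 0.55 or less was found in 11.4% of 11018 genes, and both KO IPs lay below both WT IPs in 37.8%. Whole-gene IP over input differed by -0.44 on the log2 scale (95% interval -0.85 to -0.04), with a limma p of 0.0371 before and 0.345 after adjustment. Of the 6 members 2, Jak1 and Stat3, were lower in KO by this measure, against 46.2% of all genes. The comparison gave 0 calls among 11018 genes, with 13.7% at an unadjusted p under 0.05. Without KO replicate 1 it gave 696 calls and without KO replicate 2 it gave 2034, with no member among them.

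For Socs3 the regions held the highest IP coverage of the pathway members. The second region had 595 and 639 in KO IPs, against 542 and 567 in WT IPs and 1201 in the first IP. The KO IPs were above the WT IPs, as they were for winscore, at 4.40 and 3.86 in KO and 3.30 and 3.50 in WT. The difference in IP over input was 0.32 (95% interval -0.31 to 0.94, limma adjusted p = 0.513). The first region had 320 and 441 in KO IPs, against 405 and 425 in WT IPs, with overlapping groups.

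In Ptpn11 the second region had 305 and 337 in KO IPs, against 275 and 294 in WT IPs and 121 in the first IP. Its IP over input was nearly equal, with a log2 difference of 0.00 (95% interval -0.68 to 0.68). The first region was lower in KO, at 64.9 and 49.4 in KO IPs, against 67.7 and 69.9 in WT IPs, and its log2 difference in IP over input was -0.27 (95% interval -1.12 to 0.59, limma adjusted p = 0.675).

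The receptor genes had regions of similar coverage in both genotypes. Lifr had 64.1 and 91.0 in KO IPs, against 77.5 and 76.4 in WT IPs, and the log2 difference in IP over input was -0.17 (95% interval -1.08 to 0.74). The second Il6st region, the highest of that gene, had 203 and 155 in KO IPs, against 164 and 132 in WT IPs. The intervals of the 3 Il6st regions ran from -0.75 at the lowest to 1.17 at the highest. Such intervals leave room for differences of more than 1 log2 unit in Lifr, Ptpn11 and Il6st.

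**Figure D3:**
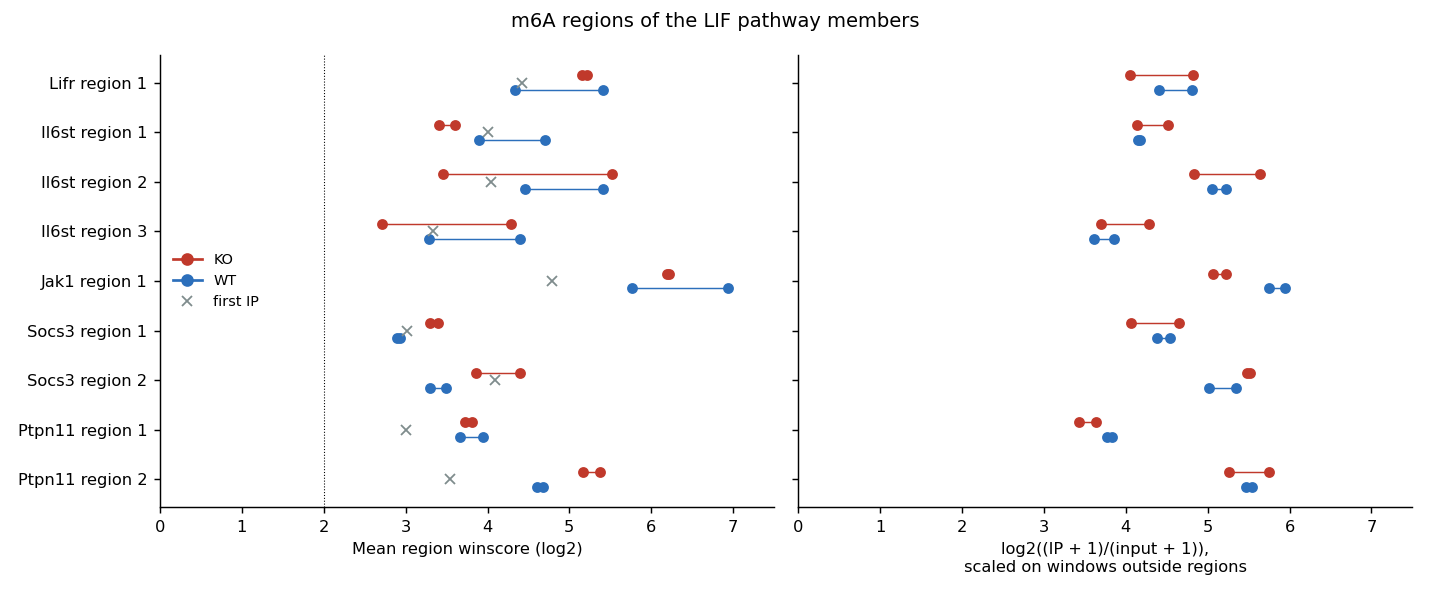
The left panel gives the mean winscore (log2) and the right panel log2 of IP over input, scaled on windows outside regions, for the 9 regions of the members (y axis). Red points are the KO pairs, blue points the WT pairs, each joined by a line, and crosses are the first IP; the dotted line marks a winscore of 2. In the right panel the Jak1 region is at 5.22 and 5.06 in KO and at 5.75 and 5.94 in WT.

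Windows with a winscore of at least 2 in every KO and WT IP were also found outside the regions of the first IP. The search was made after the data were seen. Some lay outside the last exon. Windows 30 and 31 of Jak1 from the 5′ end had a winscore of 4.46 and 2.25 in KO IPs, against 2.46 and 2.38 in WT IPs, and 0.32 in the first IP. Window 2 of Ptpn11 had 3.03 and 3.88 in KO IPs, against 2.10 and 2.08 in WT IPs, and 0.72 in the first IP. The share of such windows over all genes is not given here, and not all of those in the members are described. In Lifr, windows 58 to 60 of the last exon had a winscore of 3.94 and 6.43 in KO IPs, against 3.93 and 6.06 in WT IPs, and 0.70 in the first IP. Coverage there was 11.6 and 150 in KO IPs, against 35.4 and 108 in WT IPs and 8.13 in the first IP, so replicates of 1 group differed more than the groups did. In Stat3, which had no region, 2 windows of the last exon had a winscore of 2.54 and 4.23 in KO IPs, against 2.32 and 3.57 in WT IPs and 1.01 in the first IP. They are windows 67 and 68 of 100 from the 5′ end. Their IP coverage was 8.25 and 28.4 in KO, against 27.3 and 43.9 in WT, on an input coverage of 11.9 and 10.2 in KO and of 16.0 and 12.7 in WT. In KO replicate 1 their IP coverage was thus below that of the input. The gene median of Stat3 that winscore divides by was 0 and 0.23 in KO IPs, against 2.04 and 1.43 in WT IPs. Of its 100 windows, 32 and 31 had a winscore of at least 2 in KO IPs, against 6 and 16 in WT IPs. Stat3 as a whole had less coverage in the IP than in the input in each of the 5 pairs, at 2.20 and 3.81 in KO IPs, 4.46 and 4.51 in WT IPs and 7.36 in the first IP. IP coverage below input was usual outside regions and not particular to Stat3. Over 5542 genes, the median log2 of IP over input there was -1.02 and -0.971 in KO pairs, and -0.996 and -1.14 in WT pairs.

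IP profiles along a gene were also compared between libraries. Across the windows of Socs3, Pearson's r was 0.914 to 0.964 between KO and WT IPs, 0.936 between the KO IPs and 0.978 between the WT IPs. Across the windows of Stat3 it was 0.307 to 0.618, 0.218 and 0.669 for the same pairs. Of the 100 Stat3 windows, 58 and 48 were at 0 in the KO IPs, and 7 and 39 in the WT IPs. The other members lay between Socs3 and Stat3. Between KO and WT IPs their r was 0.701 to 0.823 for Lifr, 0.873 to 0.908 for Il6st, 0.723 to 0.845 for Jak1 and 0.767 to 0.864 for Ptpn11. Neighbouring windows share fragments, and these values are descriptions.

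The rest of the pathway was read from a list of 70 other genes, of which 58 passed the coverage filter. Of these 8 rose, 11 fell and 39 were not called, against 13.0% of all genes that rose and 13.6% that fell. Their median log2 difference was -0.05, against -0.005 over all genes tested. Most of the called genes, 11 of 19, were on the list of STAT3 and LIF target genes.

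Among ligands, Lif itself had a coverage of only 0.739 and 0.699 in KO inputs, against 0.705 and 0.688 in WT inputs, under the filter. Il6 was listed at 0 in all 5 inputs. Cntf, a ligand that also acts through the LIF receptor, rose by 0.28 on the log2 scale at a low coverage of 1.64 and 1.76 in KO, against 1.21 and 1.25 in WT (limma adjusted p = 0.0305). Of the other receptors, Il11ra1 alone passed the filter and it was not called. Osmr, which pairs with gp130 for oncostatin M, was at most 0.0321 in the KO and WT inputs.

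Among the other kinases, Yes1 and Jak3 rose. Yes1, a SRC family kinase that acts downstream of LIF in these cells, had 18.7 and 20.2 in KO, against 15.4 and 16.8 in WT (log2 difference 0.26, limma adjusted p = 0.0264). Jak3 had 1.70 and 1.49 in KO, against 1.17 and 1.13 in WT. Of 5 other STAT genes Stat2, which acts in interferon signalling, fell by 0.33. These 3 calls and that of Cntf were each lost without 1 library: the highest adjusted p on leaving out a library was 0.154 for Cntf, 0.186 for Yes1, 0.174 for Jak3 and 0.172 for Stat2. The libraries were KO replicate 1 for Jak3, KO replicate 2 for Cntf, Yes1 and Stat2, WT replicate 1 for all 4, and WT replicate 2 for Cntf and Jak3.

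Of the 12 genes of the ERK and PI3K branch, 1 fell and none rose. It was Gab1, an adaptor that SHP2 binds, with 24.4 and 22.8 in KO inputs, against 31.2 and 32.1 in WT inputs (log2 difference -0.41, limma adjusted p = 0.00195). Of the 14 inhibitors, Socs2, a relative of Socs3, rose, with 19.5 and 19.2 in KO, against 13.7 and 14.4 in WT (log2 difference 0.43, limma adjusted p = 0.00122). With the median coverage over windows its log2 difference was 0.27 and it was not called (limma adjusted p = 0.188). Pias2, a member of the PIAS family of STAT inhibitors, fell, with 20.7 and 19.4 in KO, against 23.9 and 24.5 in WT. Its adjusted p of 0.0165 became 0.0572 without KO replicate 2 and 0.0800 without WT replicate 2.

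Of the 18 target genes tested, 4 rose and 7 fell, while their median log2 difference was -0.12. Tbx3, a transcription factor of the naive state, had the smallest p, with 14.0 and 12.9 in KO inputs, against 23.9 and 24.8 in WT inputs. The groups were far apart, and the log2 difference was -0.81 (SE 0.07, limma adjusted p = 4.66e-05). Zfp36, whose product hastens the decay of AU-rich messenger RNAs, rose, with 9.03 and 9.80 in KO, against 5.69 and 5.77 in WT (log2 difference 0.63). Mras, a RAS-related GTPase, fell, with 1.29 and 1.21 in KO, against 2.59 and 2.71 in WT (log2 difference -0.70). Icam1, an adhesion molecule, fell too, with 6.71 and 6.53 in KO, against 9.53 and 10.1 in WT (log2 difference -0.50). Klf4, a naive pluripotency factor named here after its values were seen, fell as well, with 50.6 and 44.3 in KO, against 68.1 and 70.9 in WT (log2 difference -0.54). Tbx3, Zfp36, Mras, Icam1 and Klf4 passed the test without each library in turn. Target calls without 1 library were fewest without WT replicate 1 and without WT replicate 2, at 2 that rose and 5 that fell in each case. With no filter on low coverage, where 762 genes were called in all, 1 target rose and 4 fell.

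Set side by side, none of the 6 members and 11 of the 18 tested targets passed, against 26.6% of all genes. Whether the lists differ was not tested. Other markers moved with the genotype in the same libraries. Of the 7 stem cell markers Utf1 rose, Nanog and Dppa5a fell and 4 were not called. Their summed coverage was 1965 and 1831 in KO, against 2399 and 2458 in WT, of which Dppa5a alone was 1121 and 1029 in KO, against 1525 and 1539 in WT. Of the 3 trophectoderm markers Krt8 rose, with 10.4 and 10.4 in KO, against 3.71 and 3.54 in WT, while Cdx2 and Elf5 were at most 0.137 in all KO and WT inputs. Of the 3 neural markers Sox1 fell, with 0.539 and 0.365 in KO, against 1.22 and 1.03 in WT, and was not called with no filter on low coverage (limma adjusted p = 0.0634). Pax6, with 0.123 and 0.0883 in KO and 0.106 and 0.0928 in WT, and Neurog2, at most 0.0310, were under the filter. The 3 mesoderm markers summed to 1.87 and 1.64 in KO, against 1.54 and 1.56 in WT. Eomes, the one of them tested, was not called, and Mixl1, under the filter, had 0.381 and 0.329 in KO, against 0.114 and 0.157 in WT. The 4 endoderm markers summed to 0.255 and 0.430 in KO, against 0.554 and 0.774 in WT. The 6 fibroblast markers summed to 2.86 and 2.57 in KO, against 3.16 and 2.89 in WT, most of it Thy1 at 2.22 and 2.07 in KO, against 2.75 and 2.43 in WT. Col1a1, under the filter, had 0.287 and 0.204 in KO, against 0.0868 and 0.0567 in WT, and Col1a2 had 0.194 and 0.112 in KO, against 0.0151 and 0.0207 in WT. Pdgfra and Pdgfrb, also under the filter, went the other way. Pdgfra had 0.0519 and 0.0718 in KO, against 0.0863 and 0.116 in WT. Pdgfrb had 0.0897 and 0.0974 in KO, against 0.224 and 0.262 in WT. Col3a1 was at most 0.0189 in the KO and WT inputs. The part of these marker levels in the target genes' differences was not tested.

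**Figure D4:**
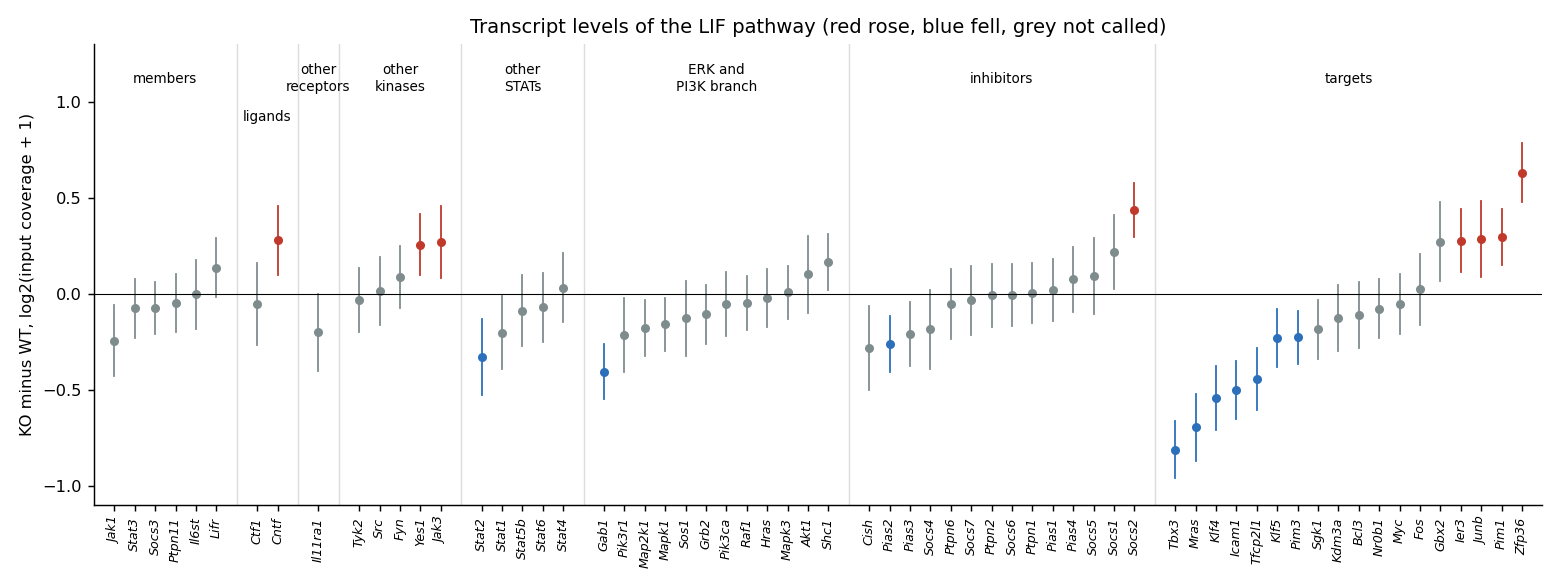
Log2 difference of input coverage, KO minus WT (y axis), with its 95% interval, for the 6 members and other tested pathway genes grouped by role (x axis). Red genes rose, blue genes fell and grey genes were not called by limma at an adjusted p of 0.05. The members lie between -0.25 and 0.14, and Tbx3 and Zfp36 are the lowest and highest of the targets.

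Regions of the first IP were found in 44 of the 58 tested pathway genes, against 54.5% of 11048 expressed genes. The highest mean winscores in the first IP were 4.82 in Pias2, 4.79 in Pik3ca, the catalytic subunit of PI3 kinase, and 4.66 in Myc, a target of the pathway. The Jak1 region, at 4.78, was close to these. Of the 18 tested targets 16 had a region, and neither of the tested ligands nor Il11ra1 had one.

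A deposited table of RPKM values per gene gave other transcript levels for the KO columns. Socs3 had 134.8 and 159 RPKM in the columns labelled KO input, against 24.7 and 24.0 in the WT columns, a ratio of 6.03, whereas the ratio of input coverage was 0.947. The ratios of RPKM were 3.88 for Il6st, 2.92 for Ptpn11, 1.98 for Jak1, 1.73 for Lifr and 0.367 for Stat3. They were close to the ratio of KO IP coverage over WT input coverage, which was 5.15 for Socs3, 3.88 for Il6st, 2.65 for Ptpn11, 2.05 for Jak1, 1.61 for Lifr and 0.330 for Stat3. Across 13817 genes the RPKM columns labelled KO input had a Pearson's r of 0.960 and 0.976 with the KO IP tracks of the same number, and of 0.751 and 0.770 with the KO input tracks. Genes are not independent replicates, and the values are descriptions. For this reason input coverage was used for every transcript level above, and the member with no region, Stat3, is the one whose RPKM ratio was below 1.

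**Figure D5:**
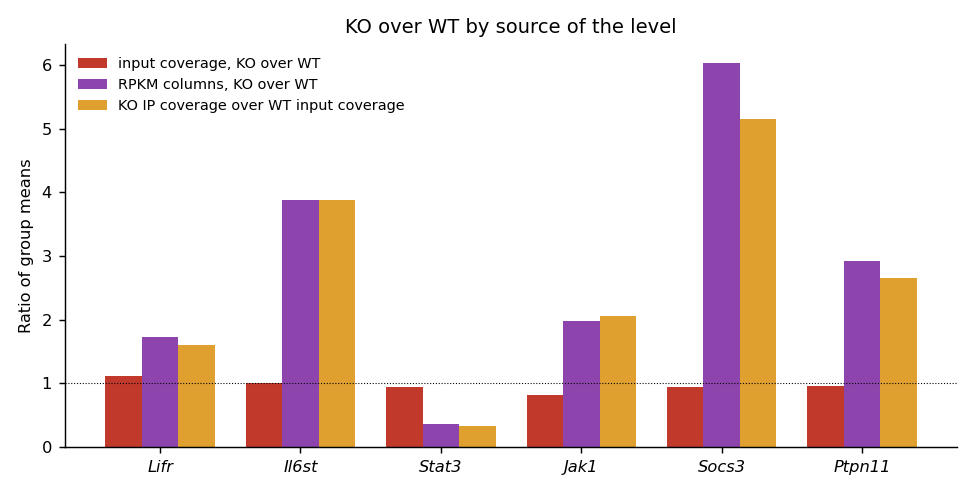
Ratio of group means (y axis, from 0) for each member (x axis): input coverage of KO over WT in red, RPKM columns of KO over WT in purple, and KO IP coverage over WT input coverage in yellow. The dotted line marks a ratio of 1. The red bars stay between 0.814 and 1.11, and the purple and yellow bars run side by side, up to 6.03 and 5.15 in Socs3.

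The genes whose pattern across the 5 inputs was most like that of a member were taken among 6601 genes. The measure was the Euclidean distance of log2(coverage + 1) after subtracting each gene's mean over the inputs, so the level itself did not count. In the members the first input was 1.55 to 3.14 times the WT mean, a larger departure than that between KO and WT. The nearest were Mettl2 for Lifr (distance 0.0348), Lrrc59 for Il6st (0.0383), Nop14 for Stat3 (0.0431), Zfp36l2 for Jak1 (0.0315), Dnm2 for Socs3 (0.0636) and Ggta1 for Ptpn11 (0.00556). Next came Cstf2 and Anapc2 for Lifr, Myg1 and Wbp11 for Il6st, Dgcr14 and Ckap5 for Stat3, Poli and D17Wsu92e for Jak1, Scrib for Socs3, and Spg7 and Hnrnpu for Ptpn11. None of the nearest genes was another member, and with 5 inputs such distances are a description.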

How the data were processed

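The submitters' processing notes name TopHat 1.1.3 and the mouse build mm9. How reads were filtered, which gene model and strand setting were used, how coverage was scaled and how wide a window is were not given in the sources used here, so overlapping and antisense genes are uncertain. The deposited window files hold, per the file headers, coverage (a signal), its gene median and a log2 winscore. The authors' log2 winscore was recomputed in all 1510223 windows to within 4.97e-14. It divides (window + 1) by (gene median + 1) in each library, sets that of the IP over that of the input and takes log2. A deposited table holds RPKM values per gene, per the file headers.

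Coverage was averaged over the windows of a gene and log2(coverage + 1) was tested with limma 3.58.1 (lmFit, eBayes with trend, Benjamini-Hochberg, threshold 0.05) in R 4.3.3, among genes that reached 1 in 2 or more of the KO and WT inputs. These differences understate the change of low genes. Winscore was averaged over regions. For IP over input, log2((IP + 1)/(input + 1)) was reduced by each pair's median outside regions (first-IP winscore under 1) over 5542 genes with a coverage of at least 5 there. Whole-gene values were centred on the median. Relative depth came from each track's smallest step, which all low values were whole multiples of (tolerance 0.001). No read numbers were derived, and replicates of 2 limit the precision.

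WT was taken from the genotype label and KO from the sample titles. The same replicate numbers share only a number: deviations from the group means of same-numbered libraries had a correlation of -0.03 to 0.03. The members and lists were chosen with earlier results of these data known. The rule for named genes took all members and their regions, Mettl3, up to 4 called genes with the smallest p per list, the 3 pathway genes with the highest regions and the 3 nearest genes per member. Some genes that the rule named are not reported here. Klf4, Krt8 and Sox1 were added after their values were seen. Scripts were tested on simulated data. Python 3.11.15, numpy 2.4.6, pandas 2.3.3, scipy 1.17.1 and matplotlib 3.10.9 were used.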

Additional observations from a re-analysis of the deposited data

How the results depend on the processing

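The number of genes called for transcript level was 2977, and it moved to 1930 with a filter at a coverage of 5, 1232 with the median over windows, 762 with no filter, 7965 with the RPKM table, and 1743 to 3144 on leaving out a library. With the replicate block the winscore calls were 61 instead of 0, and no member region was among them. The numbers share only a number, and the block gave no member a call. Leaving out a library gave 0 to 1252 winscore calls, 0 to 2373 calls of IP over input by region and 0 to 2034 by whole gene. A filter at an input coverage of 5 gave 1 call by whole gene. Il6st transcript changed sign at 0.00970 with quantile normalization and at 0.00971 with the median of ratios, and ranged from -0.0748 to 0.0698 on leaving out a library. With RPKM, whose KO columns followed the KO IPs, all 6 members were called (5 rose, 1 fell), and the log2 difference turned to 1.81 for Il6st, 0.89 for Jak1, 2.54 for Socs3, 1.45 for Ptpn11, 0.99 for Stat2, 2.21 for Pias2, 1.56 for Tbx3, 1.69 for Icam1, 2.52 for Klf4 and 1.37 for Sox1. Mettl3 had an adjusted p of 0.0508 with no filter. Winscore changed sign with the highest window at 0.17 for the first Il6st region and 0.98 for the first Ptpn11 region, which was also at 0.24 and 0.21 with region thresholds of 1 and 3. On leaving out a library winscore differences ranged from -1.49 to 0.59 and -1.14 to 0.44 for Il6st regions 2 and 3, -0.22 to 0.85 for Lifr, -0.73 to 0.44 for Jak1 and -0.18 to 0.10 for the first Ptpn11 region. IP over input changed sign at -0.0159 for the second Ptpn11 region with a pseudocount of 0.5 and at 0.00720 for the first Socs3 region with a threshold of 3. On leaving out a library it ranged from -0.55 to 0.21 for Lifr, -0.0225 to 0.36, -0.31 to 0.49 and -0.0367 to 0.55 for the Il6st regions in order, -0.40 to 0.18 for the first Socs3 region, -0.24 to 0.24 for the second Ptpn11 region and -0.80 to -0.60 for Jak1. Whole-gene IP over input of Lifr was -0.0411 with the authors' scaling alone, and ranged from -0.0868 to 0.36 on leaving out a library, that of Mettl3 from -0.64 to 0.58 and that of Stat3 from -0.49 to 0.0287. The cause of these changes was not tested. Of 483 alternatives for single genes and regions 402 kept direction and side of the threshold, 37 kept direction but lost their call, 5 kept direction and gained one, and 39 changed sign, with or without a call. The low IP depth limits the region comparisons.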
